A study of Equus caballus with 6 samples.

Results

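Interferon-stimulated genes are the antiviral programme that cells switch on when an interferon binds its receptor. The receptor's kinases phosphorylate STAT proteins. Activated STAT2 works with IRF9 at response elements in the promoters of these genes, and IRF7 amplifies the interferon genes themselves. In skin-like epithelium this programme is known from viral infection, tissue damage and sterile inflammation. The genes described here are RSAD2, STAT2, MX1, MX2, ISG15, IRF1, IRF7, IFIT2 and ISG20, and they were chosen by name. Every probe set was taken whose single symbol in the platform annotation is one of these names. This gave 7 of the 9 genes, among 9155 with a probe set of their own, and 9 of the 24016 probe sets other than controls, with 3 probe sets for IRF7 and 1 for each other gene. IRF1 and ISG20 are not analysed here.

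The tissue was lamellar tissue of the equine hoof, in which folded epidermis and dermis interlock and hang the coffin bone from the hoof wall, with laminitis (3 arrays, replicates 1, 3 and 4) or normal (3 arrays, replicates 2, 3 and 4). All samples came from the right foot. The labels used here give neither the age or breed of the horses nor the cause or stage of the disease, and do not say whether the samples are separate animals, so the p-values speak of the spread between these arrays and part of it may be technical. RNA of each sample was hybridised to a GeneChip with bovine probes, so a probe set that mismatches the horse transcript reads low, and no probe set's signal is set against another's. Of the 9 symbols, 8 also occur in the horse RefSeq gene table of the TB-T2T assembly, the exception being IFIT2. In that table MX1 and MX2 lie on the same chromosome with 0 other genes between them.

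The interferon genes had differences of both signs between laminitis and normal, and none of those tested passed over all probe sets. RSAD2 read higher and STAT2 lower on every laminitis array than on any normal array, while the other 7 probe sets overlapped between the groups. Groups that did not overlap were found for 14.6% of all probe sets. Whether the signs differ beyond the spread between arrays was not tested. Of the 9 probe sets, 6 had a negative log2 difference between laminitis and normal and 3 a positive one, which is 66.7% negative, beside 56.3% over all 24016 probe sets. The median log2 difference was -0.19 over the 9 and -0.066 over all 24016. A probe set entered the test where its signal lay above its own array's median, 86.7 to 96.6 on the deposited linear scale, on at least 3 of the 6 arrays. The 5 that entered were those of RSAD2, STAT2 and MX1 and 2 of the 3 for IRF7. The probe sets of MX2, ISG15 and IFIT2 and the remaining 1 of IRF7 were too dim.

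Limma with Benjamini-Hochberg adjustment called 0 of the 5, and 0 of all 12519 tested probe sets (0%). At an unadjusted p under 0.05 limma gave 1 of the 5, RSAD2, where the share over all tested probe sets was 9.79%, or 4.82% in the direction of RSAD2. The p of RSAD2 was 0.051 to 0.171 in 10 of its 14 alternatives, among them leaving out any one array but normal replicate 3, so the count of 1 was lost there. With the filter on all 6 arrays the 1 was STAT2 (p 0.0438). The groups did not overlap for 2 of the 9 probe sets, and for 14.6% of all probe sets (6.32% with laminitis above normal, as RSAD2, and 8.32% with laminitis below, as STAT2). With 3 arrays against 3, an exact two-sided permutation test over the 20 splits cannot go below 0.1.

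**Figure D1:**
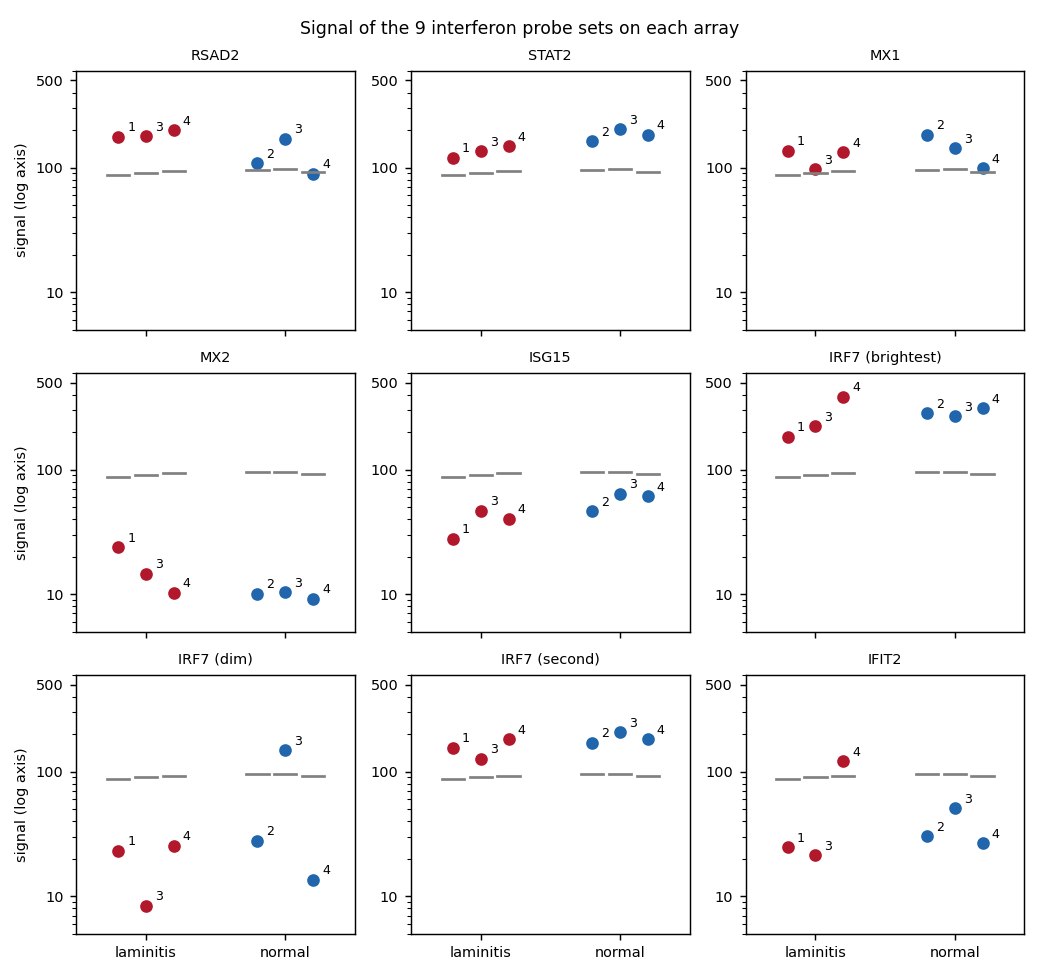
Signal of each of the 9 probe sets (linear units, log axis) on the laminitis arrays (red, left) and the normal arrays (blue, right), labelled by replicate number. Grey bars mark the median of the same array. RSAD2 on laminitis arrays sits between 176 and 199, above every normal array, and STAT2 between 120 and 149, below every normal array.

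STAT2 carries the signal of the type I interferon receptor to the nucleus. Its signal was 120, 136 and 149 on laminitis replicates 1, 3 and 4, against 162, 202 and 183 on normal replicates 2, 3 and 4. Every laminitis array lay below every normal array, and all 6 lay above their array's median. The mean signal was 135 ± 14.5 in laminitis and 182 ± 20.03 in normal tissue (SD, n = 3 arrays each). On the log2 scale the difference was -0.44 ± 0.20 (SE), with a 95% interval from -0.90 to 0.025. That is 0.738 times the normal geometric mean. It did not pass in limma over all probe sets (adjusted p 0.534), and the exact permutation p was 0.1, the smallest this design allows. A log2 difference of at least this size, in either direction, was found for 27.8% of tested probe sets. The groups also stayed apart after quantile normalization and after centring each array on its median.

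IRF7, the transcription factor that drives type I interferon genes and is itself induced by interferon, was read by 3 probe sets, which did not share a pattern. The brightest had signals of 184, 223 and 384 on laminitis replicates 1, 3 and 4, against 284, 268 and 310 on normal replicates 2, 3 and 4. The laminitis arrays held both its lowest values and its highest, so the normal values lay inside the laminitis range. Its log2 difference was -0.19 ± 0.30 (SE, 95% interval -0.90 to 0.51, limma adjusted p 0.853), and it became 0.031 without laminitis replicate 1.

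The second tested IRF7 probe set had signals of 155, 127 and 183 on laminitis replicates 1, 3 and 4, against 171, 207 and 183 on normal replicates 2, 3 and 4. Laminitis replicate 4 lay among the normal arrays here and the other two laminitis arrays lay below them. The log2 difference was -0.28 ± 0.21 (SE, 95% interval -0.78 to 0.23, limma adjusted p 0.704). Without laminitis replicate 3 it was -0.14.

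The dim IRF7 probe set, below the test's filter, read 23.3, 8.42 and 25.4 on the laminitis arrays in the same order, against 27.9, 149 and 13.6 on the normal arrays. Normal replicate 3 alone lay above its array's median. The log2 difference of -1.17 became -0.19 without normal replicate 3 and -1.91 without normal replicate 4, so a single array sets most of it. With 64 added to every signal before log2 it was -0.47. In laminitis, replicate 3 had the lowest value for the second and the dim probe set, and replicate 1 for the brightest.

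RSAD2, or viperin, is a radical SAM enzyme of the endoplasmic reticulum that makes a chain-terminating nucleotide against viruses. Its signal was 176, 179 and 199 on laminitis replicates 1, 3 and 4, against 108, 170 and 89.1 on normal replicates 2, 3 and 4. All laminitis arrays lay above all normal arrays, by the narrowest margin over normal replicate 3, and normal replicate 4 lay below its array's median. The laminitis arrays were close to each other, with a mean of 185 ± 12.4, while the normal mean was 122 ± 42.2 (SD, n = 3 arrays each).

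The log2 difference of RSAD2 was 0.65 ± 0.27 (SE), a 1.57-fold ratio of geometric means, with a 95% interval from 0.0047 to 1.29. The unadjusted limma p was 0.0487 and the adjusted p 0.508, so RSAD2 did not pass. The exact permutation p was 0.1. A log2 difference at least as large in size was found for 14% of tested probe sets. Leaving out 1 array moved the difference between 0.45, without normal replicate 4, and 0.91, without normal replicate 3. The groups stayed apart after quantile normalization (0.72) and after median centring (0.73).

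MX1 and MX2 are dynamin-like GTPases, of which MX1 blocks a broad range of RNA viruses. The MX1 signal was 137, 96.7 and 132 on laminitis replicates 1, 3 and 4, against 183, 144 and 99.1 on normal replicates 2, 3 and 4. Both groups spread over most of the same range, with normal replicate 2 highest and laminitis replicate 3 lowest. The mean was 122 ± 21.9 in laminitis and 142 ± 42.0 in normal tissue (SD, n = 3 arrays each). The log2 difference was -0.19 ± 0.28 (SE, 95% interval -0.87 to 0.48, limma adjusted p 0.845). Without normal replicate 2 it was 0.014.

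The MX2 probe set was dim on every array. It read 23.9, 14.6 and 10.3 on laminitis replicates 1, 3 and 4, against 10.1, 10.3 and 9.21 on normal replicates 2, 3 and 4. The normal values were close together, and in 8 of the 9 pairs of a laminitis and a normal array the laminitis value was the higher. The log2 difference was 0.63, with an SE of 0.35 in the fit without a filter on dim probe sets (limma adjusted p 0.705). After quantile normalization (0.74) or median centring (0.72) the laminitis arrays lay above the normal arrays without overlap. Without laminitis replicate 1 the difference was 0.31, and with 16 or 64 added to every signal it was 0.30 or 0.12. Detection calls were not used here, so whether these values lie above background is unknown, and MX1 had the opposite sign.

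ISG15 is a ubiquitin-like protein that is attached to other proteins during the interferon response. Its signal was 27.8, 46.9 and 40.4 on laminitis replicates 1, 3 and 4, against 46.4, 63.98 and 61.03 on normal replicates 2, 3 and 4. The groups overlapped by 1 of 9 array pairs, in which laminitis replicate 3 lay just above normal replicate 2. All 6 values lay below their array's median, so ISG15 was not tested. The log2 difference was -0.59, with an SE of 0.29 in the fit without a filter (limma adjusted p 0.692). It was -0.38 without laminitis replicate 1 and -0.24 with 64 added to every signal.

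IFIT2 is a tetratricopeptide-repeat protein of a family known for restricting viral translation. Its signal was 24.8, 21.5 and 121 on laminitis replicates 1, 3 and 4, against 30.4, 50.7 and 26.6 on normal replicates 2, 3 and 4. Laminitis replicate 4 lay above all other arrays and was the only one above its array's median, while laminitis replicates 1 and 3 had the lowest values. The log2 difference of 0.22 (SE 0.70 in the fit without a filter) therefore rests on that array, and without it the value was -0.58.

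**Figure D2:**
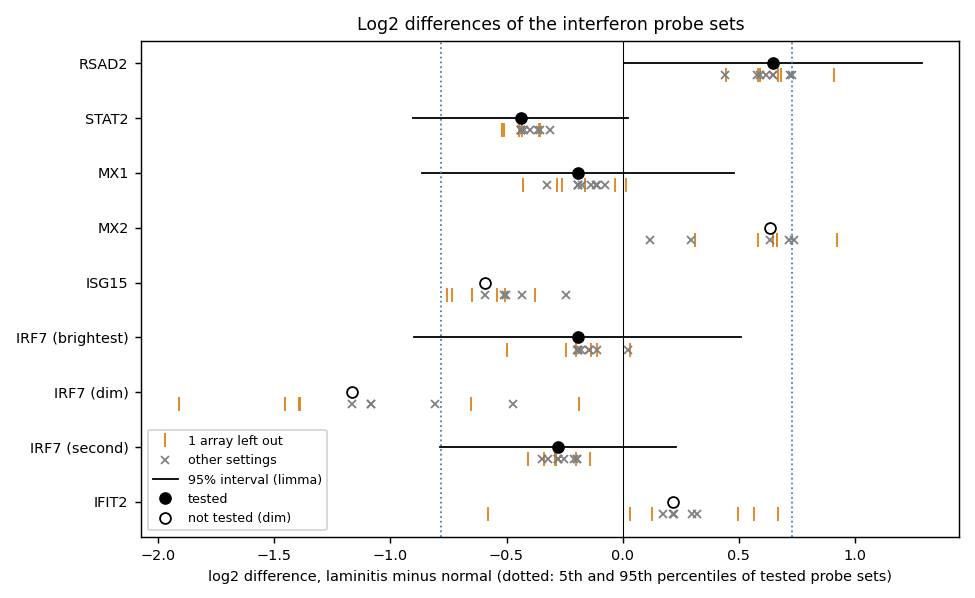
Log2 difference, laminitis minus normal, of each probe set, with the 95% limma interval where it was tested (filled points) and no interval where it was too dim (open points). Orange ticks give the value with 1 array left out and crosses the value under the other settings. The dotted lines are the 5th and 95th percentiles of all tested probe sets, -0.78 and 0.73, and only the dim IRF7 probe set lies outside them.

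The arrays that stood high or low differed from gene to gene. Laminitis replicate 4 had the highest value of the 6 arrays for RSAD2, the brightest IRF7 probe set and IFIT2. Laminitis replicate 1 was highest for MX2 and lowest for STAT2, ISG15 and the brightest IRF7 probe set. Normal replicate 3 was highest for STAT2, ISG15 and the other two IRF7 probe sets, and normal replicate 2 for MX1. Relative to the mean log2 signal of the 6 arrays, IFIT2 lay at 1.70 on laminitis replicate 4 and the dim IRF7 probe set at 2.54 on normal replicate 3.

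Within laminitis the SD on the log2 scale was smallest for RSAD2, at 0.095, and largest for IFIT2, at 1.39. Within normal tissue it was smallest for MX2, at 0.088, and largest for the dim IRF7 probe set, at 1.77. For the brightest IRF7 probe set the laminitis SD was 0.55 and the normal SD 0.11, while for RSAD2 the laminitis SD was 0.095 and the normal SD 0.48. With 3 arrays in a group, these spreads were not tested against each other.

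**Figure D3:**
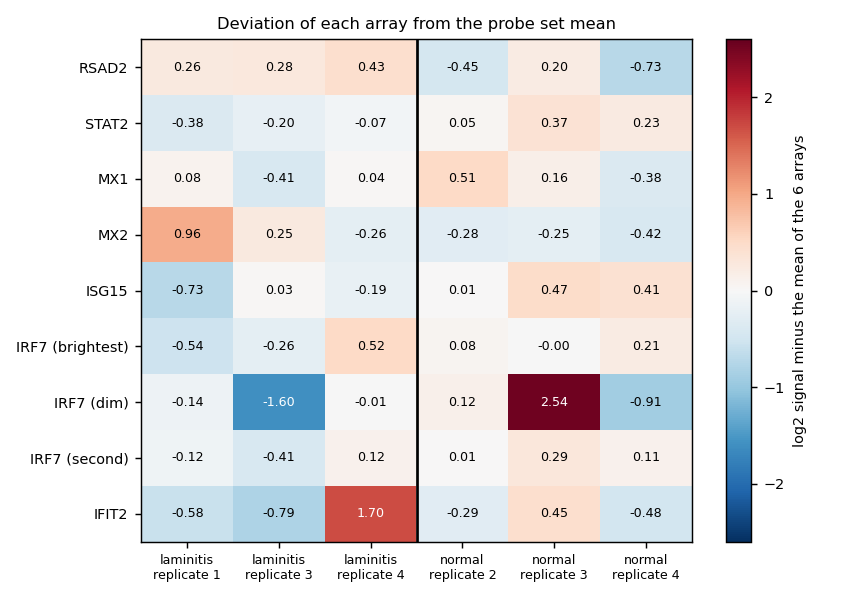
Deviation of each array from the probe set's mean log2 signal over the 6 arrays, with laminitis to the left of the black line and normal to the right. Red is above the mean and blue below. No array is red or blue in all 9 rows.

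The rest of the interferon pathway was read from lists of 136 gene symbols other than the 9, some of them alternative names of the same gene. Of these symbols 77 had a probe set and 50 were tested, 1 probe set a gene. Limma called 0 of the 50, beside 0% of the 6151 tested genes. At an unadjusted p under 0.05 there were 3 higher and 4 lower, together 7 of 50, beside 9.79% of all tested genes. That count was 3 to 5 with 1 array left out (3 without normal replicate 2 and 3 without normal replicate 3), 3 with no filter and 2 with the replicate block. The groups did not overlap for 11 of the 50 (4 higher and 7 lower), where the share over all tested genes was 17.1%. The median log2 difference of the 50 was 0.052, and that of all tested genes was -0.029. Over all 117 probe sets of these lists, dim ones included, 53% had a negative difference, beside 56.3% over all probe sets.

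The interferons themselves were little represented. Of the 4 with a probe set, 2 were tested and 0 called. The bovine probe set of IFNT2, an interferon tau known from the ruminant trophoblast, read from 103 to 161 in laminitis and from 169 to 231 in normal tissue. Its log2 difference was -0.60 ± 0.25 (limma adjusted p 0.507), and its groups did not overlap. Which horse transcript this probe set reads was not tested. IFNAC, an interferon alpha, lay at 0.27 ± 0.46 with overlapping groups. Of 4 tested receptors and kinases, 0 were called and all overlapped. The receptor subunits IFNAR1, for type I interferon, and IFNGR2, for interferon gamma, had log2 differences of 0.29 ± 0.24 and -0.16 ± 0.23. JAK1, a kinase that serves both receptors, had -0.058 ± 0.20. A dim IFNGR2 probe set had a log2 difference of -1.87.

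Of 3 other STATs tested, 0 were called, and 2 of them lay on the opposite side from STAT2. STAT3, which carries interleukin-6 signals, read 228, 165 and 174 on laminitis replicates 1, 3 and 4, against 138, 91.3 and 105 on normal replicates 2, 3 and 4. All laminitis arrays lay above all normal arrays, and the log2 difference was 0.77 ± 0.24 (SE, limma adjusted p 0.43). Its other probe set, too dim to test, gave 0.77 with overlapping groups and an SE of 0.65 in the fit without a filter. STAT5B, a STAT of growth hormone and cytokine signalling, read 366, 438 and 442 on the laminitis arrays, against 297, 296 and 306 on the normal arrays. Again the groups did not overlap, with a log2 difference of 0.47 ± 0.18 (SE, limma adjusted p 0.494). STAT6, the interleukin-4 STAT, overlapped at -0.27 ± 0.32. The difference between STAT2 and the other STATs was not tested.

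Of 3 other IRFs tested, 0 were called and all 3 had negative log2 differences. IRF2, an antagonist of IRF1 at shared sites, lay at -0.53 ± 0.20 (SE, limma adjusted p 0.494) with groups that did not overlap, while its other tested probe set gave 0.33 ± 0.27. IRF5 and IRF8, factors of myeloid and lymphoid cells, lay at -0.12 ± 0.19 and -0.19 ± 0.32.

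Of 6 tested feedback regulators 0 were called, with 4 positive and 2 negative log2 differences. PTPN6, a phosphatase of blood cells that dampens JAK-STAT signalling, read 114, 128 and 128 on laminitis replicates 1, 3 and 4, against 260, 180 and 210 on normal replicates 2, 3 and 4. The groups did not overlap, the log2 difference was -0.80 ± 0.21 (SE), and the limma adjusted p of 0.35 was the smallest of the 50 genes. USP18, which removes ISG15 from proteins and blocks the type I receptor, lay at -0.43 ± 0.26, and its other 3 probe sets, all too dim to test, gave -1.05, 0.31 and -0.18. CISH, a STAT5-induced inhibitor, lay at 0.41 ± 0.29.

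Of 5 tested sensors of nucleic acids and their adaptors 0 were called, with 4 negative log2 differences. TLR3, the endosomal receptor for double-stranded RNA, lay at -1.03 ± 0.42 (SE, limma adjusted p 0.498) without overlap, but its second tested probe set gave -0.11 ± 0.24 and a dim one 1.16. TICAM2, an adaptor of TLR4, lay at -0.49 ± 0.27, also without overlap. TLR9, the receptor for CpG DNA, overlapped at 0.70 ± 0.44.

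The largest list, of other interferon-stimulated genes, had 27 tested members, of which 0 were called, 17 had a positive log2 difference and 10 a negative one (median 0.070). IFI30, a lysosomal thiol reductase induced by interferon gamma, read 118, 156 and 137 on laminitis replicates 1, 3 and 4, against 95.6, 73.3 and 35.1 on normal replicates 2, 3 and 4. All laminitis arrays lay above all normal arrays, with a log2 difference of 1.12 ± 0.38 (SE, limma adjusted p 0.456). IFI30 lay above the array's median on 3 laminitis and 0 normal arrays. It thus entered the test only through the group where it was high. PARP14, an ADP-ribosyltransferase, lay at 0.46 ± 0.27 and IFI44, a cytosolic antiviral protein, at -0.50 ± 0.31, both with overlapping groups. Another tested IFI44 probe set gave 0.15 ± 0.38. Of the 27, the groups did not overlap for 2 higher genes, IFI30 among them, and 2 lower genes.

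**Figure D4:**
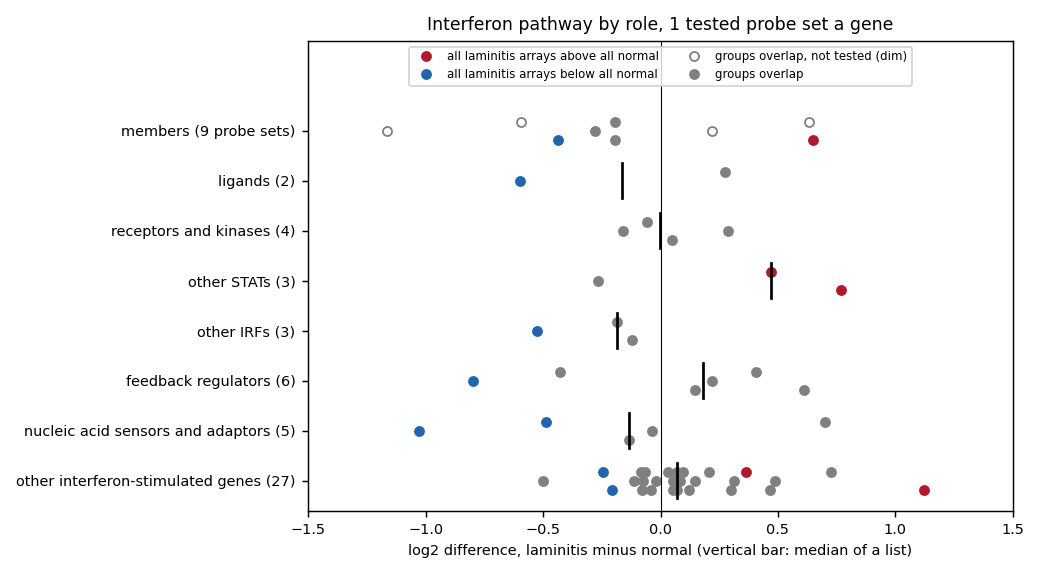
Log2 differences, laminitis minus normal, of the 9 probe sets and of the tested genes of each pathway list. Red and blue mark groups that do not overlap, grey marks overlapping groups, open points were too dim to test, and the vertical bar is a list's median. Both directions occur among the 9 and in 6 of the 7 lists, the other IRFs being all negative.

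In bulk tissue, fewer cells of a type and less RNA per cell cannot be told apart. The labelled tissue was set beside marker lists, and its identity was not tested. Of 14 keratinocyte markers 10 had a probe set and 7 were tested. KRT14 averaged 494 in laminitis and 383 in normal tissue, where it ran from 143 to 609, so the groups overlapped. Of 9 dermal fibroblast markers all had a probe set and 8 were tested. The summed signal of the tested markers kept the groups apart for 3 of the 9 cell type lists. Of all tested single genes, 17.1% kept the groups apart. A sum weighs bright probe sets most. For neutrophils (4 of 10 listed symbols tested) the sum ran from 1495 to 12992 in laminitis and from 503 to 983 in normal tissue. For monocytes and macrophages (5 of 11) it ran from 857 to 962 in laminitis and 662 to 838 in normal tissue. For T and NK cells (10 of 12) it ran from 1504 to 1734 in laminitis and from 1771 to 1996 in normal tissue. Any sum that keeps the groups apart lies in the direction of RSAD2 or in that of STAT2. The neutrophil and monocyte sums lay in that of RSAD2 and the T and NK sum in that of STAT2. S100A9 and S100A8 carried the neutrophil sum, and CYBB carried the monocyte sum. The part of these sums in either result was not tested. Within laminitis the neutrophil sum was lowest on replicate 4, where RSAD2 was highest. The T and NK sum was lowest on laminitis replicate 1 and highest on laminitis replicate 4, as was STAT2. These orders rest on 3 arrays and were not tested. No marker with a probe set was listed at 0 on any array, but no other probe set was either. The lowest value was 0.0386, on laminitis replicate 3.

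The marker lists were divided in direction. The 2 markers of smallest p in each list did not pass over all probe sets, at limma adjusted p from 0.222 to 0.963. Among the 4 tested neutrophil markers S100A9 and S100A8, which stressed keratinocytes also make, lay at log2 differences of 4.52 and 4.37 and carried the sum. ELANE and MPO, enzymes of neutrophil granules, lay at -1.05 and -0.44. Each of the 4 kept the groups apart, beside 17.1% of all tested genes. Among the 5 monocyte and macrophage markers CYBB and MSR1 lay at 2.20 and 0.59, while C1QB, CD14 and CD68 lay at -0.28, -0.16 and -0.26, and the list's median was -0.16. CYBB averaged 251 in laminitis and 61.7 in normal tissue, the latter below the lowest array median of 86.7. It carried the sum of this list, whose median lay in the other direction. Among the 10 T and NK markers 7 were negative and 3 positive, with a median of -0.094. CD2 and CD247 lay at -0.98 and -0.81 without overlap, and CD4 at 0.30 without overlap, although a dimmer tested probe set of CD4 gave -0.67. ELANE, MPO, C1QB, CD14, CD68, CD4 and PDGFRA were named after their values were seen, to show both directions. For the general leukocyte list the sums overlapped, at 738 to 871 in laminitis and 806 to 949 in normal tissue, with CD52 at 0.36 and ITGB2 at -0.38. For plasmacytoid dendritic cells, the main producers of type I interferon, 2 of 6 markers were tested. GZMB, which is also in the T and NK list, lay at -0.77 and TCF4 at -0.26, and the sums overlapped. The sums of the other 4 lists overlapped too, with ITGB4 at 1.29 and KRT14 at 0.60 for keratinocytes, DCN at -1.61 and FBLN1 at -0.69 for fibroblasts (5 of 8 markers positive, among them PDGFRA at 0.35 without overlap, and a median of 0.19), PECAM1 at 0.043 and CDH5 at -0.14 for endothelium, and JCHAIN at 0.47 and MS4A1 at -0.43 for B and plasma cells. Untested probe sets of opposite sign existed for MPO (0.17), CD14 (0.25), CD2 (0.049), MSR1 (-0.86 and -0.73), PECAM1 (-0.38), CDH5 (0.73) and MS4A1 (0.21).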

How the data were processed

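Per the labels' protocols, oligo(dT)-primed cRNA was amplified once, biotin-labelled and read on Affymetrix bovine GeneChips. The deposited values are intensities on a linear scale, which the authors brought to a common level: the mean after trimming 2% at each end is 150.02 to 150.03 on all arrays. The submitters' processing notes name GCRMA, but values on this scale are not typical of it, so the step that made them is open. The 112 control probe sets were left out, and symbols came from GEO's platform annotation, with 13292 probe sets holding 1 symbol, 86 several and 10638 none. Arrays were grouped by sample title, and 0 pairs of arrays held identical values.

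The log2 of the values, with nothing added, was fitted with limma 3.58.1 (lmFit, eBayes; R 4.3.3), with two-sided tests over the 12519 probe sets above their array's median on at least 3 of 6 arrays and Benjamini-Hochberg adjustment over all of them at 0.05. A pathway or marker gene was read from its tested probe set of highest mean. All probe sets of the 9 genes were named, and so were the 3 tested genes of smallest p of each pathway list and 2 of each cell type list. The genes and lists were chosen with earlier results of these data known. In data simulated for this comparison over 12519 probe sets, limma recovered 20% of 2-fold and 67% of 4-fold changes. Alternatives were other filters, scalings, offsets, variance models, array weights, a replicate block and leaving out each array. The number of arrays limits the precision.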

Additional observations from a re-analysis of the deposited data

How the results depend on the processing

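Of the tested probe sets of the 9 interferon genes 0 were called by limma in all 15 alternatives, and of the 50 pathway genes 0 in all 15. The adjusted p ran from 0.463 to 0.838 for RSAD2 and from 0.41 to 0.865 for STAT2 over the alternatives in which each was tested. RSAD2 was not tested when a probe set had to exceed the median on all 6 arrays. RSAD2 and STAT2 kept their directions in every alternative that gave a value. Over all probe sets limma called 6 when all 6 arrays had to exceed the median, 4 with an intensity trend and robust prior, and 0 to 2 with 1 array left out (2 without laminitis replicate 4), against 0 in the reported setting. The cause was not tested. MX1 ranged from -0.43 to 0.014 with 1 array left out, turning positive without normal replicate 2. The brightest IRF7 probe set ranged from -0.50 without laminitis replicate 4 to 0.031 without laminitis replicate 1, and turned to 0.023 with the replicate block. Numbers 3 and 4 occur in both groups. Across probe sets, same-numbered arrays did not deviate together (r of -0.017 and -0.031). The labels do not say whether they share an animal or a batch, and these r values cannot settle it. The summed fibroblast markers read 12556 (laminitis) and 14203 (normal) on replicates 3, and 30074 and 31034 on replicates 4. For keratinocyte markers the sums were 1847 and 1608, and 2369 and 1057. The replicate block left 0 calls. The background of the dim probe sets is not known here.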
